A study of Mus musculus with 12 samples.

Results

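Hyaluronan turnover was followed through 10 genes in the liver and the lung of newborn mice, out of 24421 rows of gene counts in each library. The starting gene, *Cemip*, was chosen by its measured reads in lung, about 10.3-fold lower in null than in WT, and the list was filled by function with the enzymes that make hyaluronan (*Has1*, *Has2*, *Has3*), those that cut it (*Cemip*, *Tmem2*, *Hyal1*, *Hyal2*) and the proteins that bind it at the cell surface (*Cd44*, *Hmmr*, *Lyve1*). All 10 were present in the count tables, which list *Cemip2* under its older symbol *Tmem2*. Pups were the offspring of *Man1a2*+/- breeding pairs and were either *Man1a2*+/+ (WT) or *Man1a2*-/- (null). The null allele, *Man1a2*tm1.1Ahe, lacks exon 2 of a Golgi mannosidase gene in every cell, so liver and lung were both mutant from conception. Tissue was taken within 30 to 60 min of birth, and each of the 4 groups (WT liver, null liver, WT lung, null lung) held 3 libraries of whole-tissue RNA, 12 in all. In whole tissue, fewer cells of a type and less RNA per cell cannot be told apart.

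Hyaluronan is a long, unbranched polymer of glucuronic acid and N-acetylglucosamine. Hyaluronan synthases build it at the plasma membrane from UDP-sugars and push it out of the cell, where it holds water and gives the matrix of embryonic and fetal tissue its volume. Hyaluronidases and the Cemip proteins cut the chains into fragments, which are taken up by receptors, largely in lymphatic and liver sinusoidal endothelium, and degraded in lysosomes. In the fetal lung the polymer fills the interstitium that thins around birth, and the liver clears much of what reaches the blood.

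The 2 members with promoter sequence shown here are the gene around which the list was drawn up and the member with the highest level in liver relative to lung. RefSeq promoter sequence on GRCm38.p6 was matched for 6 of the 10 genes (*Has1*, *Cemip*, *Hyal1*, *Hyal2*, *Cd44* and *Hmmr*), as the 250 bases before the start site. The *Cemip* window is chr7:84086506-84086755 and the *Hmmr* window is chr11:40733438-40733687, both on the minus strand and both free of annotated exons, and they are written 5′ to 3′ along the gene. Capitals mark matches on either strand to the TATA box, searched for as the letters TATAAA, to the CCAAT box, searched for as those 5 letters, and to the GC box, searched for as the letters GGGCGG. Matches on the other strand appear as the reverse complement.
Cemip promoter: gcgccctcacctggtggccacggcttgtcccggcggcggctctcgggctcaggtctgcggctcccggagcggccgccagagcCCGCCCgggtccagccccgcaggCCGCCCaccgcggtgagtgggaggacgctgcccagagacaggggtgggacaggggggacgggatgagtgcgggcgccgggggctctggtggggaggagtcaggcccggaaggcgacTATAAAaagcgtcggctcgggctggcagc
Hmmr promoter: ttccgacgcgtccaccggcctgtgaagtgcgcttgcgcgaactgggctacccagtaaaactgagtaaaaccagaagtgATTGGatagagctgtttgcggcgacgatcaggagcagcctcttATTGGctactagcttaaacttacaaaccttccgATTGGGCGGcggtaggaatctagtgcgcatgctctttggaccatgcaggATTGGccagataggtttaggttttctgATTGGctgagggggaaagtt
The *Cemip* window held a TATA box with its first base 29 bases before the start, and GC boxes at 168 and 145 bases before it. The *Hmmr* window held the CCAAT box 5 times, at 172, 129, 96, 47 and 20 bases before the start, and a GC box at 93 bases, which overlaps the CCAAT box at 96. Of 32851 mouse promoter windows of the same length, 12.4% held the TATA box, 33.8% the CCAAT box and 32.7% the GC box. The GC content of the *Cemip* window was 75.2%, above that of 96.1% of these promoters, and the *Hmmr* window had 51.6%, above 46.9% of them. The AP-1 motif, with the letters TGANTCA, was found in 6.75% of promoters, and the E-box, with the letters CACGTG, in 6.02%. Neither window held one. These are letter matches only and say nothing of which factors bind.

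Library depth ran from 26759463 to 42914295 counted reads. Levels are given as CPM, the read count of a gene relative to the library total, scaled by TMM factors, which correct totals for differences in RNA composition between libraries. A level of 3 reads, taken as the detection floor, stood at 0.0542 to 0.127 CPM. *Man1a2* itself was at 53.3 to 87.7 CPM in WT liver and 49.1 to 50.6 CPM in null liver. It was at 76.3 to 109 CPM in WT lung and 41.5 to 51.6 CPM in null lung. Reads on the exons that the deletion leaves in place are included in these levels.

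A pair of libraries stood apart. The library labelled null lung 1 went against its tissue label. The summed level of 6 lung epithelial markers was 284.9 CPM in it and 19247 to 26353 CPM in the other 5 lung libraries, and *Sftpc*, the surfactant protein C gene of alveolar type II cells, was at 25.8 CPM against 12235 to 17482 CPM. Its 6 skeletal muscle markers summed to 8060 CPM (17.1 to 52.4 CPM in the other lungs), its 6 cartilage markers to 443 CPM (2.93 to 6.41 CPM) and its 8 fibroblast markers to 11797 CPM (2319 to 2767 CPM). Across genes its log2 levels had r = 0.827 to 0.85 with the remaining lungs. Null liver 1 kept a hepatocyte marker sum of 171070 CPM, within the range of 142250 to 232590 CPM of the other livers, but its skeletal muscle markers summed to 6262 CPM (2.37 to 4.56 CPM in the others), its cartilage markers to 656 CPM (14 to 42.4 CPM) and its fibroblast markers to 2690 CPM (723 to 957 CPM). Most fold changes that rest on these libraries are given with and without them. Some counts and medians, and the profiles nearest to *Cemip*, are given only with them. The part that these other cell types play in each result was not tested.

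**Figure D1:**
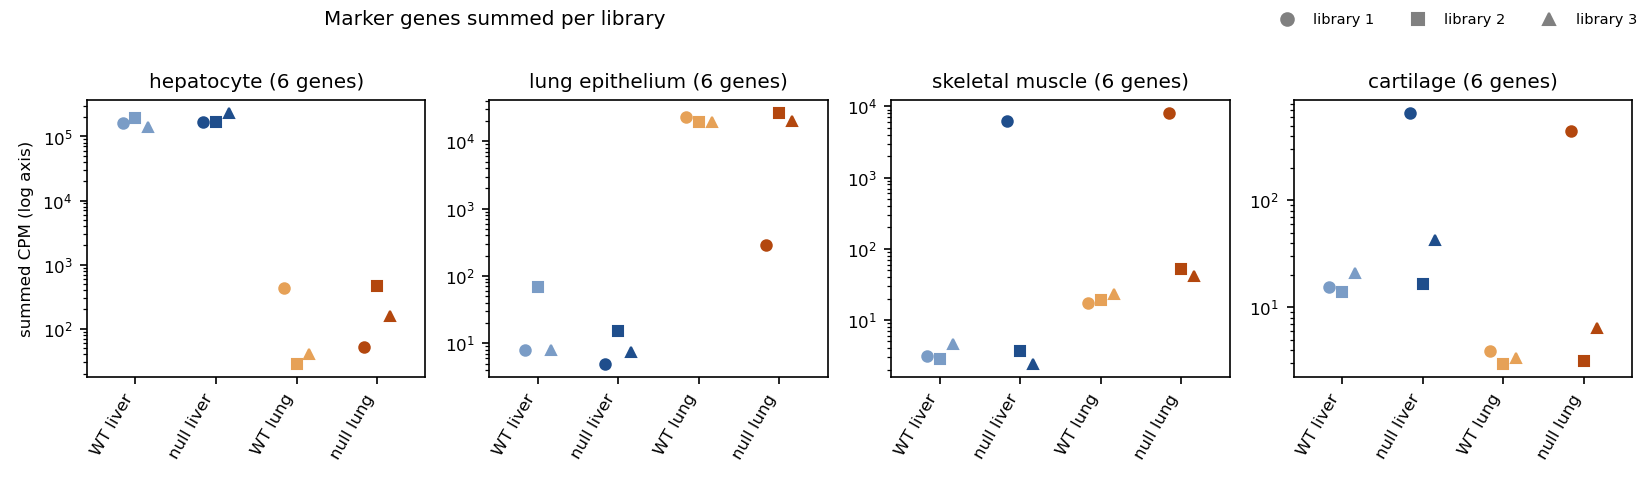
Summed levels of marker genes for 4 tissues in each library (y axis, TMM-scaled CPM on a log axis, with groups along the x axis and 1 symbol for each library). Null lung 1 sits at 284.9 CPM for lung epithelium against 19247 CPM or more in the other lung libraries, and null lung 1 and null liver 1 sit at 8060 and 6262 CPM for skeletal muscle.

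The first question was how these genes differ between newborn liver and lung. The rule for the list did not use liver, but *Cemip* was chosen by its reads in null and WT lung. Its lung values here are thus not independent of that choice. *Cemip* and *Has3*, which had too few reads for a test within liver, entered this test by their reads in lung. In the 3 WT lungs against the 3 WT livers, 7 of the 10 genes were higher in lung and 2 were lower, where a call needed an adjusted p under 0.05 and at least a 1.2-fold difference (edgeR's quasi-likelihood test, Benjamini-Hochberg adjustment over 15635 genes). These tissues differed widely, and 77.0% of all genes tested were called (39.8% higher in lung and 37.2% lower), so 9 calls among 10 genes are close to that share. The median log2 difference of the 10 genes was 1.99, and that of all genes was 0.041.

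*Cemip*, which encodes a secreted and membrane-linked protein that binds hyaluronan and drives its depolymerisation, differed most among the 10. It had 5, 2 and 6 reads in WT livers 1, 2 and 3, which is 0.177, 0.0811 and 0.206 CPM, near or under the floor. In WT lungs 1, 2 and 3 it had 1442, 843 and 1668 reads, or 26.0, 22.4 and 37.4 CPM. The fitted difference was 173-fold (log2 7.44, SE 0.325, edgeR adjusted p = 4.76e-08), and it rests on 13 reads in liver in all. The WT lung values also entered the choice of this gene, so the test of *Cemip* is no independent support. On GRCm38 the gene is at chr7:83932857-84086502, read from the minus strand.

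Each of the synthases was about 8- to 9-fold higher in WT lung. *Has2*, the synthase on which most embryonic hyaluronan depends, was at 0.319, 0.811 and 0.96 CPM in WT livers and 7.49, 6.17 and 5.94 CPM in WT lungs (9.16-fold, log2 3.19, SE 0.313, edgeR adjusted p = 1.1e-05). *Has1* was at 0.213 to 0.96 CPM in WT livers and 4.31 to 4.97 CPM in WT lungs (8.69-fold, SE of log2 0.404, edgeR adjusted p = 7.58e-05). *Has3*, whose product makes shorter chains, was at 0.243 to 0.48 CPM in WT livers and 2.44 to 3.48 CPM in WT lungs (8.32-fold, SE of log2 0.306, edgeR adjusted p = 1.26e-05). In liver the 3 synthases rest on 6 to 28 reads per WT library. *Has2* shares 182 exon bases with *Has2os* on the opposite strand and *Has3* shares 352 with *Chtf8*, and whether counting used the strand is not given in the sources used here.

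Among the other depolymerising genes, *Tmem2* was called higher in lung, *Hyal2* lower by a small margin, and *Hyal1* was not called. *Tmem2*, a membrane-anchored relative of *Cemip* that degrades hyaluronan at the cell surface, was at 47.4, 41.6 and 50.2 CPM in WT livers and 187, 201 and 173 CPM in WT lungs (3.94-fold, SE of log2 0.109, edgeR adjusted p = 2.03e-07). *Hyal2*, the membrane-linked hyaluronidase that makes the first large cuts, was at 76.0 to 81.0 CPM in WT livers and 60.7 to 68.5 CPM in WT lungs. This was 1.26-fold lower in lung (log2 -0.33, SE 0.0837, edgeR adjusted p = 0.00529). With libraries scaled to total counts the direction turned, to a log2 difference of 0.46 (edgeR adjusted p = 0.00111), and that scaling moved the median of all genes by 0.788. In 1 fit of all 12 libraries the call was lost (log2 -0.32, edgeR adjusted p = 0.159). *Hyal1*, the lysosomal hyaluronidase, was at 3.53 to 6.77 CPM in WT livers and 6.33 to 8.92 CPM in WT lungs, which overlap (log2 0.64, SE 0.268, edgeR adjusted p = 0.0508). With the replicate number as a block, *Hyal1* passed the test (log2 0.68, edgeR adjusted p = 0.00447). DESeq2 also called it (log2 0.65, DESeq2 adjusted p = 0.0258), and 7 of the alternative fits did so in all. *Hyal1* shares 1920 exon bases with *Naa80* and 159 with *Hyal3* on its own strand, so its counts are uncertain.

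The receptors went in opposite directions. *Lyve1*, the hyaluronan receptor of lymphatic endothelium, also found on liver sinusoidal endothelium and some macrophages, was at 144, 152 and 164 CPM in WT livers and 630, 678 and 585 CPM in WT lungs (4.02-fold higher, SE of log2 0.131, edgeR adjusted p = 6.21e-07). The 6 lymphatic markers summed to 211 to 218 CPM in WT liver and 147 to 151 CPM in WT lung, but they were split. *Pdpn* and *Mmrn1* were higher in every WT lung than in every WT liver, *Reln*, *Prox1* and *Flt4* were lower, and *Ccl21a* was at 0 in every library. The sinusoidal endothelium list, which summed to 352 to 371 CPM in WT liver and 925 to 1046 CPM in WT lung, was also split. Its pan-endothelial genes *Cdh5* and *Pecam1* were higher in WT lung, and its other 4 genes (*Stab2*, *Oit3*, *Clec4g* and *Fcgr2b*) were lower, with *Stab2* at 109 to 118 CPM in WT liver and 1.14 to 2.51 CPM in WT lung. *Cd44*, the broadly expressed hyaluronan receptor of leukocytes, epithelium and mesenchyme, was at 42.5, 54.8 and 44.8 CPM in WT livers and 96.9, 115 and 123 CPM in WT lungs (2.3-fold higher, SE of log2 0.126, edgeR adjusted p = 1.73e-05). *Hmmr*, which encodes a spindle-associated protein that also binds hyaluronan and is made in dividing cells, was at 53.2, 53.0 and 48.5 CPM in WT livers and 7.84, 4.58 and 5.51 CPM in WT lungs (8.74-fold lower, SE of log2 0.18, edgeR adjusted p = 2.7e-07). The sum of 10 proliferation markers ran with it, at 1458 to 1582 CPM in WT liver and 143 to 172 CPM in WT lung.

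**Figure D2:**
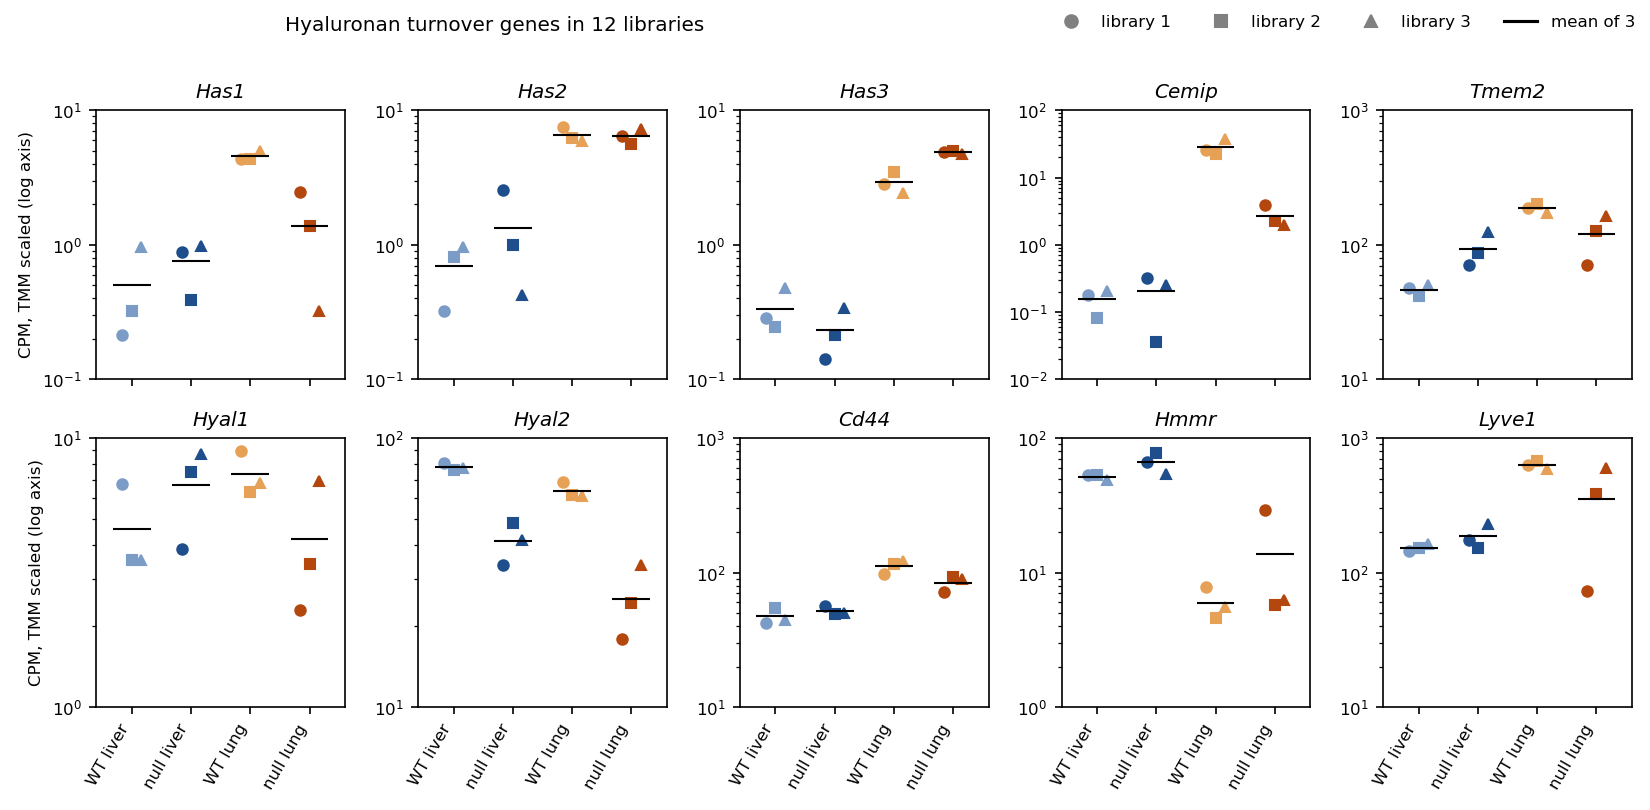
Level of each of the 10 genes in each of the 12 libraries (y axis, TMM-scaled CPM on a log axis, with groups along the x axis and 1 symbol for each library). Lines are means of 3 libraries, and *Cemip* sits at 22.4 to 37.4 CPM in WT lung, at 1.99 to 3.91 CPM in null lung and under 0.4 CPM in all livers.

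Levels were set side by side between genes only after division by exon length, as RPKM, which is CPM per kilobase of exon. In WT liver the order of mean levels was *Lyve1* (52.5 RPKM), *Hyal2* (23.8), *Hmmr* (9.50), *Cd44* (6.99), *Tmem2* (5.45), *Hyal1* (1.22), *Has2* (0.164), *Has1* (0.110), *Has3* (0.0526) and *Cemip* (0.0127). Libraries overlapped between *Has2* and *Has1* and between *Has1* and *Has3*, so the order within the synthases is not separated from their spread. In WT lung the order was *Lyve1* (216 RPKM), *Tmem2* (22.0), *Hyal2* (19.3), *Cd44* (16.5), *Cemip* (2.34), *Hyal1* (1.95), *Has2* (1.54), *Hmmr* (1.10), *Has1* (1) and *Has3* (0.458). Here the values of *Tmem2* and *Hyal2* overlapped, as did those of neighbours in the run from *Cemip* through *Hyal1*, *Has2* and *Hmmr* to *Has1*. *Cemip* was thus last in liver and in the middle of the order in lung.

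**Figure D3:**
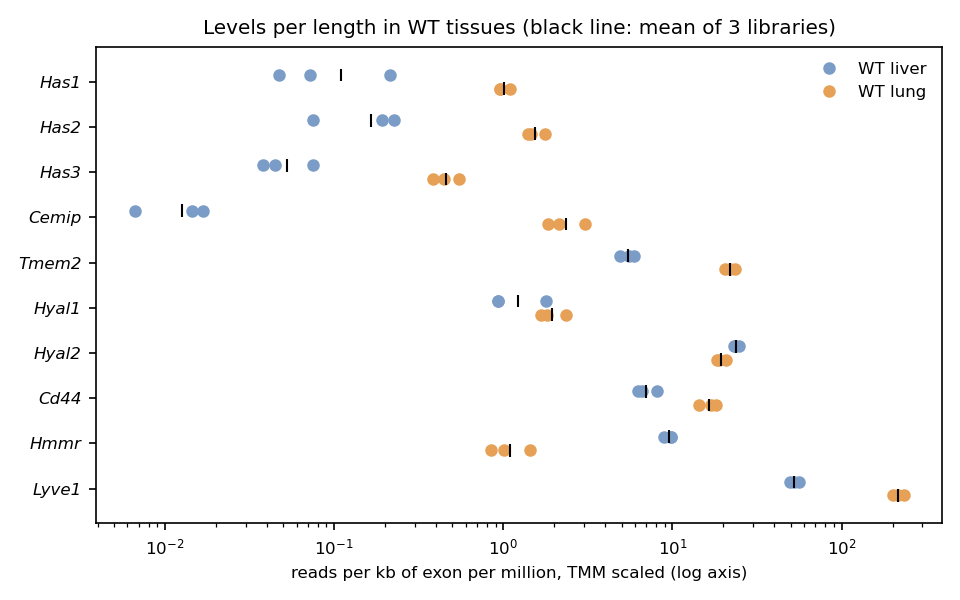
Level of each gene per length in the WT tissues (x axis, RPKM on a log axis). Points are libraries and black lines are means of 3, and *Cemip* moves from 0.0127 in liver to 2.34 in lung.

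Hyaluronan genes outside the list were counted from a wider list of 40. In WT lung against WT liver, 32 were tested, 14 were higher and 15 lower, with a median log2 difference of -0.18. The largest differences upward were *Hapln1*, the link protein that ties hyaluronan to proteoglycans (log2 7.15, SE 0.514, edgeR adjusted p = 1.23e-06), *Ptx3*, a cross-linker of hyaluronan matrix (log2 5.3, SE 0.51, edgeR adjusted p = 9.49e-06), and *Tnfaip6*, the enzyme that transfers heavy chains to hyaluronan (log2 2.69, SE 0.431, edgeR adjusted p = 0.000315). In WT liver *Hapln1* had 0 to 13 reads per library and *Ptx3* had 1 to 4. The largest differences downward were *Ambp* (log2 -10.2), *Itih3* (log2 -10.1) and *Itih2* (log2 -9.11), which encode light and heavy chains of the inter-alpha-trypsin inhibitor that the liver secretes into blood.

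The second question was how the genotype bears on these genes in liver. Of the 10, 8 had enough reads to be tested by edgeR in null against WT liver. *Tmem2* was called higher and *Hyal2* lower, and the other 6 did not pass. Of all 14343 genes tested, 26.9% were called (13.5% higher and 13.4% lower), so 2 of 8 is near that share. Groups did not overlap for 3 of the 8 (*Tmem2* and *Hmmr* higher, *Hyal2* lower), where 46.6% of all genes did not overlap (22.9% higher and 23.7% lower). The median log2 fold change of the 8 was 0.45 (0.328 without null liver 1), and that of all genes tested was 0.0221 (-0.00732).

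*Tmem2* was at 47.4, 41.6 and 50.2 CPM in WT livers and 70.2, 86.5 and 124 CPM in null livers 1, 2 and 3. Every null liver lay above every WT liver. The rise was 2.02-fold (log2 1.02, SE 0.196, edgeR adjusted p = 0.0102), and without null liver 1 it was 2.25-fold (log2 1.17, edgeR adjusted p = 0.00466). The gene spans 21778342 to 21858360 on the plus strand of chromosome 19 and shares 97 exon bases with an antisense RNA.

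*Hyal2* was at 81.0, 76.0 and 77.6 CPM in WT livers and 33.7, 48.4 and 41.9 CPM in null livers. The groups were well apart, with the lowest value in null liver 1. It fell 1.88-fold (log2 -0.91, SE 0.123, edgeR adjusted p = 0.00366), and without null liver 1 the fall was 1.75-fold (log2 -0.80, edgeR adjusted p = 0.00495). *Hyal2* lies from 107567945 to 107572779 on the plus strand of chromosome 9, just before *Hyal1* at 107576927 to 107581710. *Hyal1* did not pass, with 6.77, 3.53 and 3.53 CPM in WT livers and 3.88, 7.47 and 8.71 CPM in null livers (log2 0.53, SE 0.368, edgeR adjusted p = 0.31). Its lowest null value was in null liver 1, and without that library the log2 fold change was 0.80 (SE 0.311, edgeR adjusted p = 0.0976), which also did not pass.

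*Hmmr* was at 53.2, 53.0 and 48.5 CPM in WT livers and 66.5, 77.3 and 54.3 CPM in null livers. The groups did not overlap, but the difference missed the threshold (log2 0.37, SE 0.133, edgeR adjusted p = 0.0768). Without null liver 3 it passed (log2 0.49, edgeR adjusted p = 0.0187). The proliferation marker sum also did not overlap between the genotypes, at 1458 to 1582 CPM in WT liver and 1625 to 2421 CPM in null liver. Of its 10 genes, 4 did not overlap (*Mki67*, *Ccnb1*, *Cdk1* and *Kif11*, all higher in null), and their part in the *Hmmr* values was not tested. *Lyve1* was at 144 to 164 CPM in WT livers and 153 to 231 CPM in null livers (log2 0.29, SE 0.166, edgeR adjusted p = 0.22), and *Cd44* at 42.5 to 54.8 and 49.3 to 56.3 CPM (log2 0.15, SE 0.128, edgeR adjusted p = 0.414). Without null liver 1 the log2 fold changes were 0.34 for *Hmmr*, 0.32 for *Lyve1* and 0.06 for *Cd44*, and none passed.

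The synthases and *Cemip* were close to the floor in liver of both genotypes. *Has2* had 9, 20 and 28 reads in WT livers and 72, 28 and 10 reads in null livers. The 72 reads were in null liver 1, the library with muscle and cartilage markers, and the log2 fold change of 0.97 (SE 0.677, edgeR adjusted p = 0.318) was 0.03 without it. *Has1* had 6, 8 and 28 reads in WT livers and 25, 11 and 23 reads in null livers (log2 0.58, SE 0.611, edgeR adjusted p = 0.506, and log2 0.40 without null liver 1). *Has3*, with 6 to 14 reads in WT and 4 to 8 in null livers, and *Cemip*, with 2 to 6 and 1 to 9 reads, had too few reads for the edgeR test. DESeq2 called neither (*Has3* log2 -0.54, DESeq2 adjusted p = 0.685, and *Cemip* log2 0.41, DESeq2 adjusted p = 0.831). Without null liver 1 the DESeq2 log2 fold change was -0.29 for *Has3* and -0.12 for *Cemip*, so the sign for *Cemip* changed. A fall or a small rise in either was not detectable at this depth.

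In the wider list, 30 of 40 genes were tested in liver. Of these, 8 were called higher in null and none lower, beside a background of 13.5% of genes called higher, 13.4% lower and 26.9% either. So 8 of 30 is near the share called in either direction. By DESeq2, 11 were called (29.7% of all genes), and 13 had an unadjusted edgeR p under 0.05 (41.4% of all genes). The count fell to 1 with all 12 libraries in 1 fit, to 4 with libraries scaled to total counts, to 5 with the replicate block or without null liver 3, to 4 without WT liver 1 or WT liver 2, and to 2 without WT liver 3. The median log2 fold change of the 30 was 0.248, against 0.0221 for all genes. Genes that supply UDP-sugar precursors made up 3 of the 8 (3 of 7 tested), lysosomal and other breakdown genes 2 (of 4), other receptors and binders 2 (of 10) and covalent transfer genes 1 (of 7), with 0 of 2 among matrix partners. *Gfpt2*, an isoenzyme of the rate-limiting step of the hexosamine pathway, rose from 2.57 ± 0.848 to 7.29 ± 2.73 CPM (SD, n = 3, log2 1.51, SE 0.361, edgeR adjusted p = 0.0208). *Ugp2*, which makes UDP-glucose, rose from 193 ± 14.7 to 375 ± 77.0 CPM (SD, n = 3, log2 0.96, SE 0.151, edgeR adjusted p = 0.0056). *Hyal3*, a hyaluronidase-family gene that shares exon bases with *Hyal1*, rose from 1.12 ± 0.0825 to 2.13 ± 0.410 CPM (SD, n = 3, log2 0.93, SE 0.245, edgeR adjusted p = 0.0295). Without null liver 1, 6 of the wider genes were called higher, beside 11.9% of all genes (11.9% were lower and 23.8% either), and these 3 were among the 6.

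**Figure D4:**
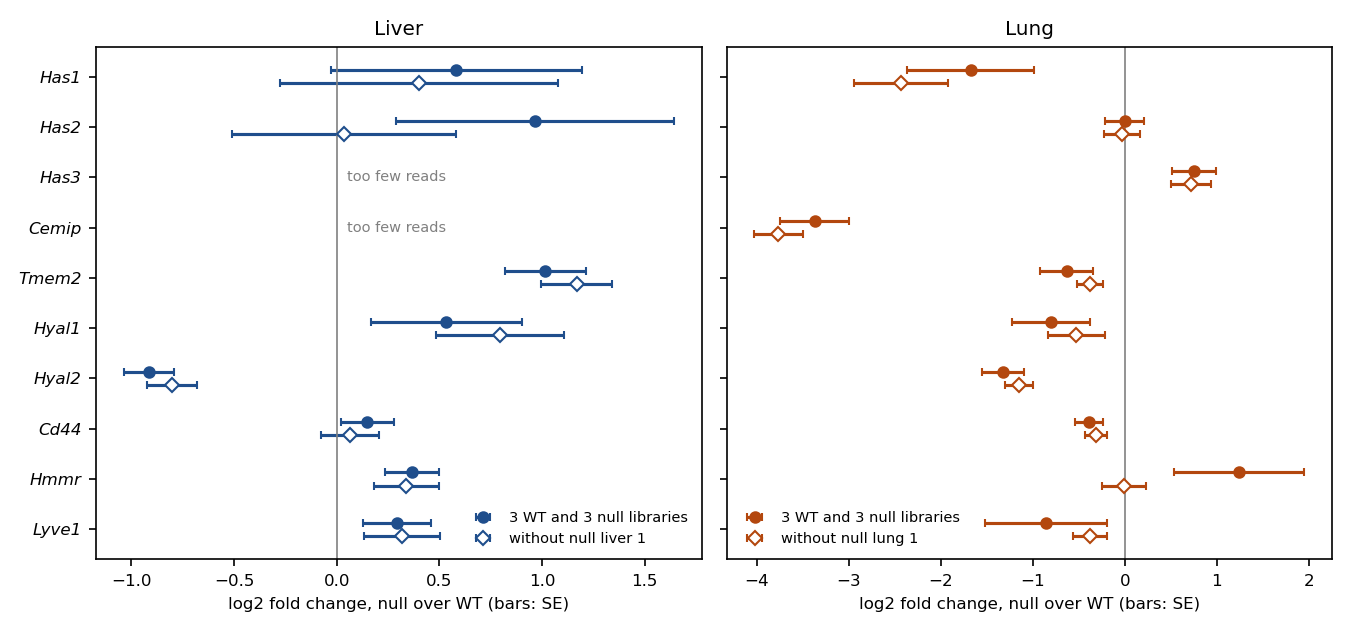
Log2 fold change of null over WT for each gene in liver (left) and lung (right), with bars of 1 SE. Filled circles use 3 libraries of each genotype and open diamonds leave out null liver 1 or null lung 1. In liver *Tmem2* sits at 1.02 and *Hyal2* at -0.91, and in lung *Cemip* sits at -3.37 and at -3.77 without null lung 1.

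The third comparison, null against WT lung, is the one that chose the list, so the values of the 10 genes there are a description, and no test of them is read as a result. *Cemip* had 1442, 843 and 1668 reads in WT lungs and 141, 111 and 105 reads in null lungs. In CPM it was at 26.0, 22.4 and 37.4 in WT and 3.91, 2.26 and 1.99 in null lungs, the highest of the null values being that of the library labelled null lung 1. The log2 fold change was -3.37 (SE 0.378), which is 10.3-fold lower, and without null lung 1 it was -3.77 (SE 0.262) or 13.6-fold lower. It stood 10th from the lowest of 15591 genes tested, and 16th of 15885 without null lung 1. The markers of fibroblasts summed to 2319 to 2767 CPM in WT lungs and to 2538 and 2761 CPM in null lungs 2 and 3. These sums overlapped, but the list was split. *Tcf21* was lower in every null lung (25.2 to 109 CPM against 193 to 238 CPM). *Pdgfra* (159 to 195 CPM against 92.4 to 111 CPM) and *Lum* (5.67 to 330.5 CPM against 1.93 to 2.62 CPM) were higher in every null lung, and the others overlapped. Those of mesothelium summed to 241 to 362 CPM in null lungs and 389 to 555 CPM in WT lungs. Of the 4, *Msln* was lower in every null lung (136 to 260 CPM against 305 to 388 CPM) and the other 3 overlapped. Their part in the *Cemip* values was not tested.

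The call rule was passed by *Cemip* alone of the 10 genes, beside 0.327% of all genes tested (0.237% lower and 0.0898% higher), and without null lung 1 by 4 of the 10, beside 37.0% of all genes. Since the contrast chose the list, nothing is read from these counts. Groups did not overlap for 6 of the 10 (5 lower, 1 higher), beside 36.1% of all genes (19.5% lower and 16.6% higher). The median log2 fold change of the 10 was -0.72 (-0.38 without null lung 1), and that of all genes was 0.0622 (-0.0105).

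The 3 synthases differed from each other in null lung. *Has1* was at 4.33, 4.31 and 4.97 CPM in WT lungs and 2.47, 1.38 and 0.322 CPM in null lungs (log2 -1.68, SE 0.693, and -2.43 without null lung 1). *Has2* was at 7.49, 6.17 and 5.94 CPM in WT and 6.46, 5.63 and 7.28 CPM in null lungs, which overlap (log2 -0.00167, SE 0.213). *Has3* was at 2.83, 3.48 and 2.44 CPM in WT and 4.88, 4.96 and 4.76 CPM in null lungs (log2 0.75, SE 0.24, and 0.72 without null lung 1). Thus *Has1* was lower and *Has3* higher in every null lung than in every WT lung, including null lung 1.

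*Tmem2* and *Hyal2* were also lower in every null lung. *Tmem2* was at 187, 201 and 173 CPM in WT and 70.8, 126 and 165 CPM in null lungs (log2 -0.63, SE 0.292, and -0.38 without null lung 1). *Hyal2* was at 68.5, 61.6 and 60.7 CPM in WT and 17.9, 24.5 and 33.6 CPM in null lungs (log2 -1.32, SE 0.226, and -1.15 without null lung 1). For both genes the lowest null value was in null lung 1. *Hyal1* overlapped between the genotypes, at 8.92, 6.33 and 6.83 CPM in WT and 2.30, 3.41 and 6.90 CPM in null lungs (log2 -0.80, SE 0.421, and -0.53 without null lung 1). *Hyal2* was thus lower in null in both tissues, and *Tmem2* was higher in null liver and lower in null lung. The difference between the tissues was not tested.

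Of the receptors, *Cd44* was lower in every null lung, and the rise of *Hmmr* rested on null lung 1. *Lyve1* overlapped between the genotypes, was lowest in null lung 1, and kept its direction without that library. *Cd44* was at 96.9, 115 and 123 CPM in WT and 72.0, 92.0 and 89.1 CPM in null lungs (log2 -0.39, SE 0.151, and -0.31 without null lung 1). *Hmmr* was at 7.84, 4.58 and 5.51 CPM in WT and 29.1, 5.73 and 6.29 CPM in null lungs, so that the log2 fold change of 1.24 (SE 0.711) was -0.00835 without null lung 1. Proliferation markers summed to 520 CPM in that library and to 143 to 177 CPM in the other lungs. *Lyve1* was at 630, 678 and 585 CPM in WT and 72.8, 381 and 597 CPM in null lungs (log2 -0.86, SE 0.661, and -0.38 without null lung 1). Lymphatic markers summed to 108 to 132 CPM in null lungs and 147 to 151 CPM in WT lungs. Of the 5 detected, *Pdpn*, which alveolar type I cells also express, was lower in every null lung (30.5 to 48.8 CPM against 80.8 to 83.8 CPM), *Reln* was higher in every null lung (6.64 to 11.9 CPM against 4.86 to 5.65 CPM), and *Prox1*, *Flt4* and *Mmrn1* overlapped. The sinusoidal endothelium list summed to 354, 1472 and 1169 CPM in null lungs 1, 2 and 3. In WT lungs it summed to 925 to 1046 CPM. The sum was thus below WT in null lung 1 and above WT in null lungs 2 and 3, but the list was split. Most of the sum was *Cdh5* (822 and 601 CPM in null lungs 2 and 3) and *Pecam1* (635 and 551 CPM). These genes and *Stab2* went with the sum. *Oit3* went the other way, above WT in null lung 1 (3.55 CPM) and below WT in null lungs 2 and 3 (0.752 and 0.512 CPM). *Fcgr2b* in null lung 2 and *Clec4g* in null lung 3 lay within the WT range.

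The wider list was tested in lung. None of the 33 tested genes was called by edgeR with all 6 libraries, 7 had an unadjusted p under 0.05 (25.0% of all genes), and DESeq2 called 3 (15.1% of all genes). Without null lung 1, edgeR called 10 of 35, with 7 higher and 3 lower, beside 18.0% and 19.0% of all genes. The largest of these upward were *Ncan*, a hyaluronan-binding proteoglycan best known from brain (log2 2.75, SE 0.631, edgeR adjusted p = 0.0135), *Itih1* (log2 1.1, SE 0.315, edgeR adjusted p = 0.0294) and *Stab2*, a clearance receptor of sinusoidal endothelium (log2 1.08, SE 0.329, edgeR adjusted p = 0.0359). *Ncan* was close to the floor, with 1 to 3 reads in WT lungs, and was at 0.285 and 0.246 CPM in null lungs 2 and 3 (1.33 CPM in null lung 1). *Itih1* and *Stab2* averaged 670 and 114 CPM in WT liver, against 1.66 and 1.98 CPM in WT lung. Hepatocyte markers summed to 431, 27.7 and 40.4 CPM in WT lungs 1, 2 and 3 and to 462 and 156 CPM in null lungs 2 and 3. The part of liver RNA in the values of these genes was not tested. Downward were *Pgm3*, of the hexosamine pathway (log2 -0.80, SE 0.165, edgeR adjusted p = 0.00898), *Msn*, which encodes the membrane-cytoskeleton linker moesin (log2 -0.59, SE 0.123, edgeR adjusted p = 0.00958), and *Gfpt1* (log2 -0.35, SE 0.1, edgeR adjusted p = 0.0308).

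Genes whose profile was nearest to that of *Cemip* were found by the root mean square difference of centred log2(CPM + 0.5) values over 14218 genes with a mean of at least 1 CPM. Over the 12 libraries these were *Wnt3a* (0.584), *Wnt7a* (0.618), *Heyl* (0.629), *Bmp3* (0.656) and *Ehd2* (0.679). Since these genes were picked for moving as *Cemip* did, their lower level in null lung follows from the choice and is no separate result. *Wnt3a* averaged 14.5 CPM in WT lung and 1.29 CPM in null lung, and *Wnt7a* averaged 12.4 and 1.11 CPM, with both under 0.03 CPM in liver of either genotype. Over the 6 lung libraries alone they were *Rem1* (0.448), *2210011C24Rik* (0.544), *Spon2* (0.559), *Hdhd3* (0.567) and *Il33* (0.615). The lists of 5 shared 0 genes. Both searches, and the null lung means given here, included null lung 1, and the searches were not repeated without it. In liver these genes differed from each other. *2210011C24Rik* averaged 0.0385 CPM in WT liver and 0.0734 CPM in null liver, close to absent as *Cemip* was, while *Spon2* averaged 23.7 and 21.8 CPM and *Hdhd3* averaged 26.8 and 1.38 CPM.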

How the data were processed

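RNA of 12 whole-tissue samples was measured, 3 per genotype and tissue, grouped by their labels. The series design gives 3 WT and 3 null mice, so libraries of a group are taken as separate animals. The authors deposited raw read counts for each gene symbol, without any normalization. Their processing notes name STAR 2.5.2a, FastQC, DESeq2 and genome build mm10. The annotation, counting program and strand setting are not given in the sources used here. Libraries were stranded and polyadenylated. Of the gene names, 27 read as dates, and these rows are not named.

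Tests were run with edgeR 4.0.16 under R 4.3.3 (filterByExpr, TMM, quasi-likelihood test, Benjamini-Hochberg adjustment over all genes tested) within the groups compared. Calls needed an adjusted p under 0.05 and at least 1.2-fold. CPM used TMM factors over 12 libraries. RPKM and positions used GENCODE M21 on GRCm38, and promoters were RefSeq. Each SE was taken as the log2 fold change divided by the root of the F statistic. Both tests were checked on simulated data. The lowest chi-square per gene between libraries of a group was 14.7, so none was counted as a copy.

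WT liver and WT lung of the same replicate number deviated together (r = 0.294, 0.236 and 0.21). So did null liver and null lung (r = 0.496, 0.394 and 0.452). Null liver 1 and null lung 1 both held skeletal muscle and cartilage markers, and each deviation was taken from the mean of its group. The r values of the null samples thus cannot tell a shared pup from this shared trait, and they were not computed without these libraries. The replicate numbers were taken to pair the samples of a genotype. The main tests between WT tissues did not use this pairing, which entered only in the alternative fit with the replicate number as a block. The pairing comes from the data, as the labels do not name the animal.

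Named genes were all 10 members, up to 3 wider-list genes called in each direction with the largest change, and the 5 profiles nearest to *Cemip*. Members and lists were chosen with earlier results of these data known. Alternatives were DESeq2 1.42.0, other scalings and filters, no minimum fold, all 12 libraries in 1 fit, a replicate block and leaving out each library. Scaling to total counts and DESeq2 without null lung 1 were added after seeing the data.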

Additional observations from a re-analysis of the deposited data

Results flagged for a closer look

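*Tmem2* moved in opposite directions in the tissues. Its log2 fold change of null over WT was 1.02 in liver, where every null library lay above every WT library, and -0.63 in lung, where all null values were under all WT values. The difference between the tissues was not tested. In lung the value without null lung 1 was -0.38. Groups of 3 are too small for a formal outlier test within a group, and none was run.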

How the results depend on the processing

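In liver *Cemip* and *Has3* had too few reads for the edgeR test. In lung the number of calls differed widely between the alternatives, both with null lung 1 included and without it. The cause of each shift below was not tested. In liver, 3856 genes were called, and 1921 with all 12 libraries in 1 fit. Leaving out 1 library gave 1641 (without WT liver 3) to 3451 genes, 2 to 3 members (2 with all libraries) and 2 (without WT liver 3) to 6 wider genes (8 with all libraries). Wider genes called in liver were also 4 with total counts, 1 with all 12 libraries in 1 fit and 5 with the replicate block. Without WT liver 1 or WT liver 2, 2150 or 2268 genes and 4 wider genes were called, and 5 wider genes without null liver 3. *Tmem2* and *Hyal2* in liver kept direction and call in each alternative.

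In lung, 51 genes were called. DESeq2 called 2355, RLE size factors gave 2, upper-quartile factors 109, total counts 317, a minimum of 10 counts 210, at least 1 count in all 0, and all 12 libraries in 1 fit 2284. Leaving out 1 library gave 0 to 5881, the highest without null lung 1 and 0 without any other, and DESeq2 without null lung 1 gave 6446. Since this contrast chose the list, nothing is read from the counts of the 10 members (1 call). These were 3 by DESeq2 (15.1% of all genes), 0 with RLE, 2 with total counts, 0 with at least 1 count in all and 2 with all 12 libraries. Leaving out 1 library gave 0 to 4 members (4 without null lung 1, otherwise 0), and DESeq2 without null lung 1 gave 5. For the wider list (0 calls) the counts were 3 by DESeq2, 5 with all 12 libraries, 0 to 10 leaving out 1 library and 9 by DESeq2 without null lung 1.

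Between WT tissues, leaving out 1 library gave 11659 to 12116 genes (12039 with all) and 9 to 10 members. *Hyal2* there reversed to 0.46 with total counts. Of the values of single members, 117 of 118 in liver and 137 of 146 between tissues kept their direction and side of the threshold. In lung, 155 of 160 moved by less than the spread between replicates, the others being *Has1* and *Hmmr* without null lung 1 and *Hyal1* without null lung 3.

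Total counts moved the share of calls that were higher from 51.7% to 77.2% between tissues, from 50.1% to 31.9% in liver (35% with upper-quartile factors) and from 27.5% to 15.8% in lung, where RLE gave 0% and all 12 libraries 45.7%. Medians of all genes moved by -0.131 in liver and -0.124 in lung with total counts, and by -0.107 in liver with upper-quartile factors.

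For null against WT, samples of the same number share only that number (correlations of deviations -0.0287, -0.01 and 0.149 in liver, -0.0435, -0.0476 and 0.105 in lung). The replicate block gave 3304 genes and 2 members in liver, and 0 genes and 0 members in lung. Between the WT tissues the block gave 12154 genes and 10 members, and beyond *Hyal1* it changed the call of no other member.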
